A study of Mus musculus with 9 samples.

Results

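The 51 genes described here encode the core machinery that builds an autophagosome and fuses it with a lysosome, ordered from the kinase that starts the process to the proteins that end it. They were chosen by name, with cargo receptors left out, and each symbol matched 1 of the 53700 Ensembl gene IDs counted. All 51 passed the filter on low counts, which kept 18415 genes. In macroautophagy the ULK kinase complex starts a cup-shaped membrane, a class III phosphatidylinositol 3-kinase marks it with the lipid PI3P, and lipid-transfer proteins and vesicles enlarge it. Enzymes resembling those of ubiquitin conjugation then attach ATG8 proteins (LC3 and GABARAP) to the membrane, and SNARE and tethering proteins fuse the closed vesicle with the lysosome. In skeletal muscle the pathway is known to be switched on by starvation, to be held back by amino acids through the kinase mTORC1, and to be needed for fibre upkeep.

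RNA came from C2C12, an established line of mouse myoblasts that can fuse into myotubes, in 9 libraries of 3 groups. All cells were kept in the reduced-serum medium OPTI-MEM for 12 h of starvation. Control wells were collected then. Valine wells went on for 36 h with 0.45 mM of this branched-chain amino acid. Val+PA wells had 0.45 mM valine for 24 h and palmitic acid, a saturated fatty acid, at 75 µM for 12 h, and the labels do not say whether valine was still present in those last hours. A group was a single 6-well plate, 3 wells of it sequenced after a random draw. Plate and group thus cannot be told apart, and p-values speak only for variation from well to well within a plate. Treated wells were collected 36 h later than Control wells, and a time-matched plate lacking valine was not analysed here. The study's title places the groups in work on valine, autophagy and fat deposition.

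The smallest library held 26750226 counts and the largest 35976589, which makes a single count equal to 0.0271 to 0.0403 CPM (counts scaled to each library's effective size). The lowest value of any member in any library was 2.09 CPM, for Atg9b in Val+PA 1. Control 3 and Val+PA 2 stood apart on the second principal component, which held 15.2% of the variance. Among the 51 genes, Val+PA 2 lay outside the other libraries of its group by at least 0.25 on the log2 scale for 26 genes (51%, beside 54% of all genes) and Control 3 for 19 (37.3%, beside 47.9%). Val+PA 1 did so for 17 (33.3%, beside 39.9%), and no Valine library for more than 1. Calls that appear when Control 3 and Val+PA 2 are both left out are given with each step. All 10 myoblast markers were detected, with a summed level of 3040 to 3270 CPM across Control libraries, 4290 to 4490 across Valine libraries and 4070 to 6050 across Val+PA libraries. Of these 10, 4 were called higher and 1 lower in either comparison with Control. Megf10 went from a mean of 203 CPM to 111 in Valine and 116 in Val+PA. Markers of differentiating muscle moved along with the treated groups, 9 of 10 higher and 1 lower in either comparison with Control, and their summed level went from 22.6 to 28.2 CPM in Control to 113 to 122 in Valine and 86.3 to 116 in Val+PA. Fibroblast markers summed to 1180 to 1770, 3270 to 3360 and 2980 to 4200 CPM in the same order, with 6 higher and 1 lower of 9 tested in Valine. Immune markers summed to 13.7 to 14.7 CPM in Control, 16.1 to 17 in Valine and 21.3 to 25.5 with palmitic acid, without overlap, and Itgam was at 0. Cd14 made up most of this sum, with means of 10.8, 10.3 and 16.5 CPM. Of 4 immune markers tested, 1 was called higher and 1 lower in Valine, and 2 higher and 1 lower in Val+PA. The lower one, Csf1r, went from a mean of 0.77 CPM to 0.218 and 0.229. It would not have passed the filter without the Control libraries, where it was higher, so its calls are no measure of direction. Endothelial markers went from 2.04 to 2.62 CPM in Control to 6.52 to 7.88 in Valine and 6.46 to 11 with palmitic acid, with Emcn at 0. Only 3 of the 8 could be tested, Kdr, Tek and Vwf, and Kdr and Tek passed the filter only through treated libraries, where they were higher. Their calls in Valine are thus no measure of direction. Esam, not tested, had a mean of 0.268 CPM in Control and 0.0757 in Valine. The muscle markers Ckm and Mymx and the fibroblast markers Lum, Dpt and Fap likewise passed only through treated libraries. Adipocyte markers summed to 25.7 to 31.5 CPM in Control and 29.9 to 38.2 with palmitic acid, with a lowest value of 23.6 in Valine, none of the 3 tested called against Control, and Adipoq, Lep and Retn at 0. The part of these marker changes in the results below was not tested. In bulk RNA, fewer cells of a type and less RNA per cell cannot be told apart.

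Sequence upstream of these genes is shown for 2 reasons. The factors TFEB, TFE3 and MITF, themselves members, bind an E-box spelled CACGTG, and RefSeq promoter windows (build GRCm38.p6, 250 bases before to 50 after the start) were at hand for 43 of the 51 genes, in 55 windows. On either strand CACGTG occurred in 6 of the 55 windows (10.9%), against 7.15% of all 32851 windows of that length. The 6 genes were Atg14, Atg3, Atg5, Atg7, Rubcn and Tbk1, of which the first changed upward and Atg3 and Tbk1 downward in at least 1 comparison described below. Below, capitals mark that motif, and in Atg3 also the longer form TCACGTGA, which contains it and was found in 1 member window (1.82%) against 0.974% of all.
Atg14, chr14:47568385-47568684, minus strand: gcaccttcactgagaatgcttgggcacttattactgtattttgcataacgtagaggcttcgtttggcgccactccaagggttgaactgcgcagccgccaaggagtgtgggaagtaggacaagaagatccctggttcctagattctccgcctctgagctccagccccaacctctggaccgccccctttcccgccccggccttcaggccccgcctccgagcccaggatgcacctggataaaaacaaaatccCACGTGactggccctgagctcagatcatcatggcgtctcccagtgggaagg
Atg3, chr16:45158579-45158878, plus strand: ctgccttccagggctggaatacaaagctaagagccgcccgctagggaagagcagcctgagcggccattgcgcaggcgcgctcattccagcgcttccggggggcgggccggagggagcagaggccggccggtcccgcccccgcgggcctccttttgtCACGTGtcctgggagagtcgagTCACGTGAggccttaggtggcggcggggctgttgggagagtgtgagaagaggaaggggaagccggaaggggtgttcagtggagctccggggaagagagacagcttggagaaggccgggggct
Tbk1, chr10:121586745-121587044, minus strand: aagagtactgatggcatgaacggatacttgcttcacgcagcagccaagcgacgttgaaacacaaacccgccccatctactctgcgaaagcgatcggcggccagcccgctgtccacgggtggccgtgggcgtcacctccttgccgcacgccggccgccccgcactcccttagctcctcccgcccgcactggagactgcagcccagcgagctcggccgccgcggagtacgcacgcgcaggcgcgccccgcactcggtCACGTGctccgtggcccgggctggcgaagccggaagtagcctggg
The windows of Pink1 and Atg9b, the members with the largest rise and the largest fall, held none of the searched motifs and so stand in lower case.
Pink1, chr4:138326247-138326546, minus strand: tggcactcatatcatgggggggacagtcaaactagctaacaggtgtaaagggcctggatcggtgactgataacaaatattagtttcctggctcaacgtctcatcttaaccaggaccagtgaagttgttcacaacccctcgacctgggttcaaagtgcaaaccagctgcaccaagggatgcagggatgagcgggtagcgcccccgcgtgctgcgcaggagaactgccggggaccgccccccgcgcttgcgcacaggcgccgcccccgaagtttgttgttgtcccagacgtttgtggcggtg
Atg9b, chr5:24392094-24392393, minus strand: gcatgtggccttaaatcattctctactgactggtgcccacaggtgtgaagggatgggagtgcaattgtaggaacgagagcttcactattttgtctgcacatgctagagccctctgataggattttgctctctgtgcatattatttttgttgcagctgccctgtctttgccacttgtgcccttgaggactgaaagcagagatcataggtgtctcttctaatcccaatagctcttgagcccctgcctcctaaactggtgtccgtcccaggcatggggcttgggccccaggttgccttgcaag
Genes called higher in both comparisons had CACGTG in 1 of 14 windows (7.14%) and genes called lower in both in 1 of 9 (11.1%), beside the 7.15% of all windows. The element TGATGNAA, bound by ATF4 dimers, and GTAAACA, bound by FOXO factors, were in none of the 55 windows, against 3.97% and 3.65% of all windows, each sought on both strands.

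The first question was which steps differed between wells given valine for 36 h and starved Control wells. Genes moved in both directions and mostly by modest amounts. The mitophagy kinase gene Pink1, the PI3P-binding Wdr45, the kinase gene Ulk2 and the ATG8 gene Map1lc3a were among those that rose, and Atg9b, Tecpr1, Atg4d and Vamp8 among those that fell. Of the 51 genes 17 rose (33.3%) and 11 fell (21.6%) by edgeR's quasi-likelihood test at a Benjamini-Hochberg adjusted p below 0.05, where the same test called 20.8% of all 18415 genes higher and 21.1% lower. Thus 28 members were called (54.9%) beside a background of 41.9%, and in 38 members (74.5%) no Valine library overlapped a Control library, beside 59% of all genes. That background includes genes at lower levels than any member. With only genes of at least 1 CPM in 3 libraries, 7080 of 14443 were called, a larger share. In that refit 18 members rose and 11 fell. The median log2 fold change of the 51 genes was 0.08, and that of all genes tested 0.00. Of the called genes 4 changed at least 2-fold (7.84% of members, 16.7% of all genes), namely Pink1, Wdr45, Atg9b and Tecpr1. That count uses the fitted log2 fold change, which for Atg10 was 0.997, just short of 2-fold, while the ratio of its mean CPM was 2.01. The split of 17 higher and 11 lower became 18 and 7 with upper-quartile factors and 18 and 6 with library size alone. The number that fell was also 6 without Control 1, without Valine 1, without Valine 2 or without Valine 3.

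In Val+PA against Control 17 of the 51 genes rose (33.3%) and 8 fell (15.7%), beside 20.4% and 18.8% of all genes. Called members numbered 25 (49%) beside 39.2% of all genes, and 27 members (52.9%) had no overlap with Control beside 45.5%. With only genes of at least 1 CPM in 3 libraries, 6650 of 14443 were called, again a larger share. In that refit 17 members rose and 8 fell. The median log2 fold change was 0.22 for the members, 0.00 for all genes and 0.11 for the members without Val+PA 2. These comparisons share the Control libraries, so their overlap is given only as counts. In both, 14 genes rose and 6 fell, none was called in opposite directions and 18 were called in neither. Without Control 3 and Val+PA 2 together, no member lost its call, and 21 rose and 15 fell in Valine (54.1% of all genes called) while 24 rose and 12 fell in Val+PA (49.8%). The counts called in each step below are small and stand beside the same shares of all genes, 20.8% higher and 21.1% lower in Valine, and 20.4% and 18.8% in Val+PA. The plot of fold changes by step shows all members in both comparisons.

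**Figure D1:**
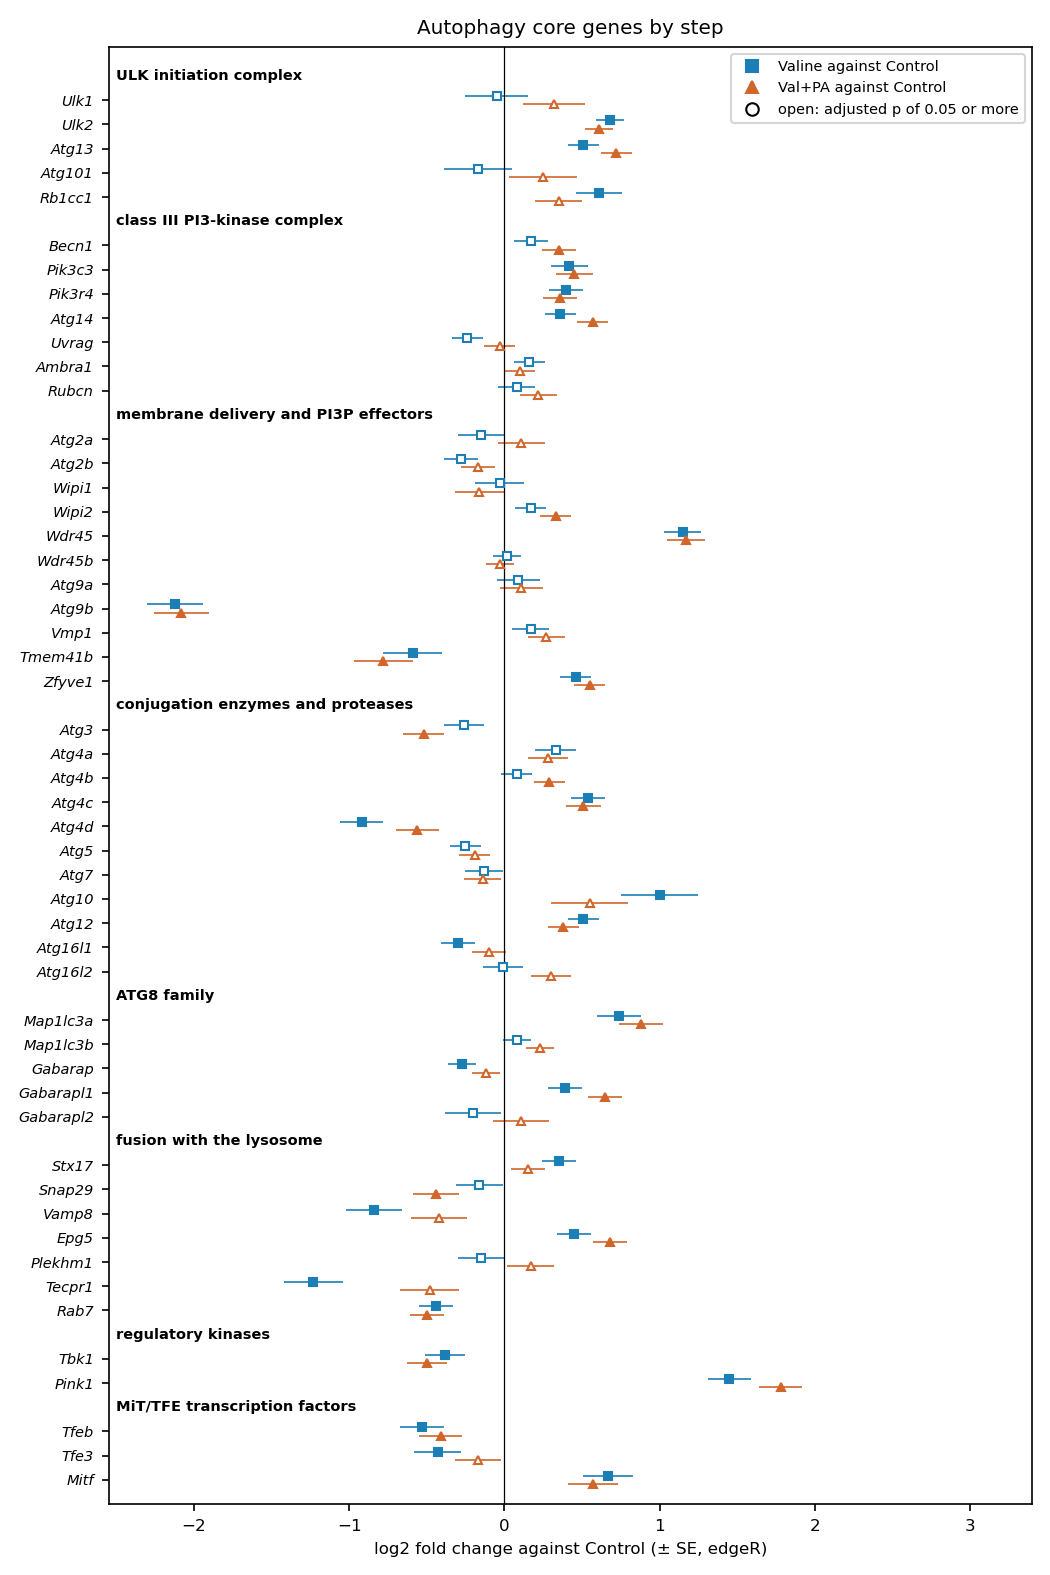
Log2 fold change (x axis) of each of the 51 genes (y axis, grouped by step) in Valine (squares) and Val+PA (triangles) against Control, with bars of 1 SE from the edgeR fit of 9 libraries; filled symbols have an adjusted p below 0.05. Pink1 at 1.45 and 1.78 and Atg9b at -2.12 and -2.08 lie farthest from 0, and every step but the class III kinase and initiation complexes holds called genes on either side of 0.

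The ULK complex joins the kinase ULK1 or ULK2 to ATG13, ATG101 and FIP200, which is encoded by Rb1cc1. In Valine 3 of its 5 genes rose and none fell, and in Val+PA 2 rose and none fell. Ulk2 measured 40.4, 40.1 and 38.6 CPM in the Control libraries, 67.0, 62.5 and 62.0 CPM in Valine and 63.3, 57.2 and 60.9 CPM in Val+PA. Every treated library was above every Control library, a log2 fold change of 0.68 (SE 0.09) in Valine and 0.61 (SE 0.09) in Val+PA (edgeR, Benjamini-Hochberg adjusted p = 0.000122 and 0.000308). Its paralog Ulk1 measured 22.9, 21.1 and 32.2 CPM in Control, 24.8, 24.7 and 23.8 CPM in Valine and 23.6, 41.4 and 30.3 CPM in Val+PA. These ranges overlapped, the highest values being those of Control 3 and Val+PA 2, and Ulk1 did not pass in either comparison (-0.05 and 0.32, SE 0.20 each). Without those libraries it passed in Val+PA (0.29, SE 0.11), and its Valine value was 0.16 (SE 0.10), not called. Atg13, the scaffold that mTORC1 phosphorylates, stood at 40.7, 39.4 and 41.7 CPM in Control, 58.5, 56.3 and 58.6 CPM in Valine and 64.0, 75.1 and 61.6 CPM in Val+PA. The groups did not overlap, and Atg13 rose by 0.51 (SE 0.10) and 0.72 (SE 0.10) on the log2 scale. Rb1cc1, the large scaffold, measured 91.6, 93.8 and 75.1 CPM in Control, 143, 131 and 123 CPM in Valine and 124, 83.3 and 124 CPM in Val+PA. It rose in Valine by 0.61 (SE 0.15, edgeR Benjamini-Hochberg adjusted p = 0.00754), while the low Val+PA 2 value fell within the Control range and that comparison did not pass (0.35, SE 0.15). Without Val+PA 2, alone or together with Control 3, Rb1cc1 passed in Val+PA as well. Atg101 had log2 fold changes of -0.17 (SE 0.22) and 0.25 (SE 0.22) and was called in neither.

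The class III kinase complex consists of the lipid kinase VPS34 (Pik3c3), its partner VPS15 (Pik3r4), Beclin 1 (Becn1) and either ATG14, which directs it to the forming autophagosome, or UVRAG, which directs it to endosomes. Of 7 genes 3 rose in Valine and 4 in Val+PA, and none fell. Pik3c3 measured 25.7, 27.6 and 32.5 CPM in Control, 39.1, 38.9 and 36.5 CPM in Valine and 34.3, 42.7 and 40.7 CPM in Val+PA. Pik3r4 measured 37.4, 38.8 and 31.3 CPM in Control, 48.5, 48.9 and 44.4 CPM in Valine and 43.2, 48.5 and 46.1 CPM in Val+PA. For Atg14, one of the promoters shown, the values were 19.3, 21.1 and 18.7 CPM in Control, 25.9, 25.0 and 25.0 CPM in Valine and 28.3, 29.7 and 29.7 CPM in Val+PA. In each of the 3 genes all treated libraries lay above all Control libraries, with log2 fold changes of 0.42 (SE 0.12), 0.40 (SE 0.11) and 0.36 (SE 0.10) in Valine and 0.45 (SE 0.12), 0.36 (SE 0.11) and 0.57 (SE 0.10) in Val+PA. Uvrag, the endosomal counterpart of Atg14, measured 49.5 to 53.2 CPM in Control, 41.6 to 46.3 CPM in Valine and 46.4 to 52.5 CPM in Val+PA, and it was not called in either comparison (-0.24, SE 0.10, and -0.03, SE 0.10). It was called lower in Valine without Control 3 and Val+PA 2 (-0.21, SE 0.08). Becn1 measured 72.3, 72.8 and 79.2 CPM in Control, 83.7, 83.1 and 84.7 CPM in Valine and 85.8, 110 and 89.2 CPM in Val+PA. The groups did not overlap, yet with all libraries Becn1 passed in Val+PA and not in Valine (0.35, SE 0.11, edgeR Benjamini-Hochberg adjusted p = 0.0248, 0.00279 to 0.0843 over 22 refits), and the difference between the treated groups did not pass (0.18, SE 0.11). Without Control 3 and Val+PA 2 it passed in Valine too (0.21, SE 0.06). Cntd1, on the other strand, shares 43.9% of the Becn1 exon bases and had a mean of at most 0.414 CPM in any group. Ambra1, a Beclin 1 partner, and Rubcn, which encodes the inhibitor Rubicon, were not called. In Valine, leaving out Control 1, Control 2, Valine 1 or Valine 2 ended the call of Pik3c3, leaving out Valine 1 or Valine 2 that of Pik3r4, and leaving out Control 1 or Valine 1 that of Atg14. In Val+PA the call of Becn1 was lost without Control 1 or Control 2, that of Pik3c3 without Control 1 and that of Pik3r4 without Control 3 or Val+PA 3.

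Genes of membrane delivery and PI3P binding diverged most among themselves. Of 11 genes 2 rose and 2 fell in Valine, 3 rose and 2 fell in Val+PA. Wdr45 (ENSMUSG00000039382, GRCm38 chromosome X, 7714333 to 7728206, plus strand) encodes WIPI4, which links PI3P to the lipid-transfer protein ATG2 and whose human gene is mutated in a neurodegeneration with brain iron. It measured 8.11, 9.42 and 8.06 CPM in Control, 19.8, 19.4 and 17.7 CPM in Valine and 19.0, 18.7 and 20.0 CPM in Val+PA. All 6 treated libraries stood far above Control, with a log2 fold change of 1.15 (SE 0.12) in Valine and 1.17 (SE 0.12) in Val+PA (edgeR, Benjamini-Hochberg adjusted p = 1.34e-05 and 1.18e-05). The predicted gene Gm45208 shares 24.7% of the exon bases of Wdr45 on the same strand and had no counts. The paralog Wdr45b had log2 fold changes of 0.02 (SE 0.09) and -0.03 (SE 0.09), Wipi1 of -0.03 (SE 0.16) and -0.16 (SE 0.16), and Wipi2, which recruits the ATG16L1 complex, of 0.17 (SE 0.10) and 0.33 (SE 0.10). With all libraries only Wipi2 in Val+PA passed among these, and not when Control 2 was left out. Without Control 3 and Val+PA 2, Wipi2 passed in Valine as well (0.17, SE 0.06) and Wipi1 was called lower in Val+PA (-0.29, SE 0.11). Wipi2 measured 179, 167 and 169 CPM in Control, 198, 193 and 191 CPM in Valine and 211, 239 and 197 CPM in Val+PA.

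Atg9b (ENSMUSG00000038295, chromosome 5, 24384181 to 24392143, minus strand) had the largest change of all members. ATG9 proteins are scramblases that ride on seed vesicles, ATG9A being the widespread form and ATG9B a tissue-restricted one. Atg9b measured 11.8, 10.2 and 11.5 CPM in Control, 2.72, 2.21 and 2.76 CPM in Valine and 2.09, 3.30 and 2.53 CPM in Val+PA. The groups were far apart, 4.36-fold lower in Valine (log2 fold change -2.12, SE 0.18) and 4.23-fold lower in Val+PA (-2.08, SE 0.18; edgeR, Benjamini-Hochberg adjusted p = 3.81e-06 and 3.96e-06). Its exons overlap those of Nos3 on the other strand over 7.45% of their length, and Nos3 moved the opposite way, with a mean of 0.700 CPM in Control against 1.24 in Valine. Atg9a measured 18.1 to 25.0 CPM in Control, 22.3 to 26.1 CPM in Valine and 22.9 to 25.4 CPM in Val+PA, and did not pass. Gm29253 shares 31.8% of its exon bases on the same strand, at a mean of 0.0482 CPM in Control and 0 in both treated groups. Tmem41b and Vmp1 encode scramblases of the endoplasmic reticulum that work together with ATG2. Tmem41b was at 107, 115 and 77.7 CPM in Control, 68.0, 65.7 and 65.3 CPM in Valine and 74.2, 41.8 and 58.0 CPM in Val+PA. It fell in both comparisons (-0.59 and -0.78, SE 0.19 each), though the Valine call held in only 13 of 22 refits and was lost without Control 1, Control 2 or any single Valine library. Vmp1, at 331 to 386 CPM in Control, 386 to 415 CPM in Valine and 351 to 466 CPM in Val+PA, passed in neither (0.17 and 0.27, SE 0.12 each). Without Control 3 and Val+PA 2 Vmp1 passed in both, at 0.24 (SE 0.06) in Valine and 0.45 (SE 0.06) in Val+PA. Zfyve1, whose product DFCP1 marks the sites on the endoplasmic reticulum where autophagosomes form, had 47.2, 47.4 and 49.6 CPM in Control, 67.5, 65.4 and 64.8 CPM in Valine and 64.5, 75.4 and 70.9 CPM in Val+PA. It rose by 0.46 (SE 0.10) and 0.55 (SE 0.10), with no overlap. Atg2a and Atg2b, the lipid-transfer proteins themselves, had log2 fold changes between -0.28 and 0.11 and were not called, except Atg2b as lower in Valine without Control 3 and Val+PA 2 (-0.22, SE 0.07).

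**Figure D2:**
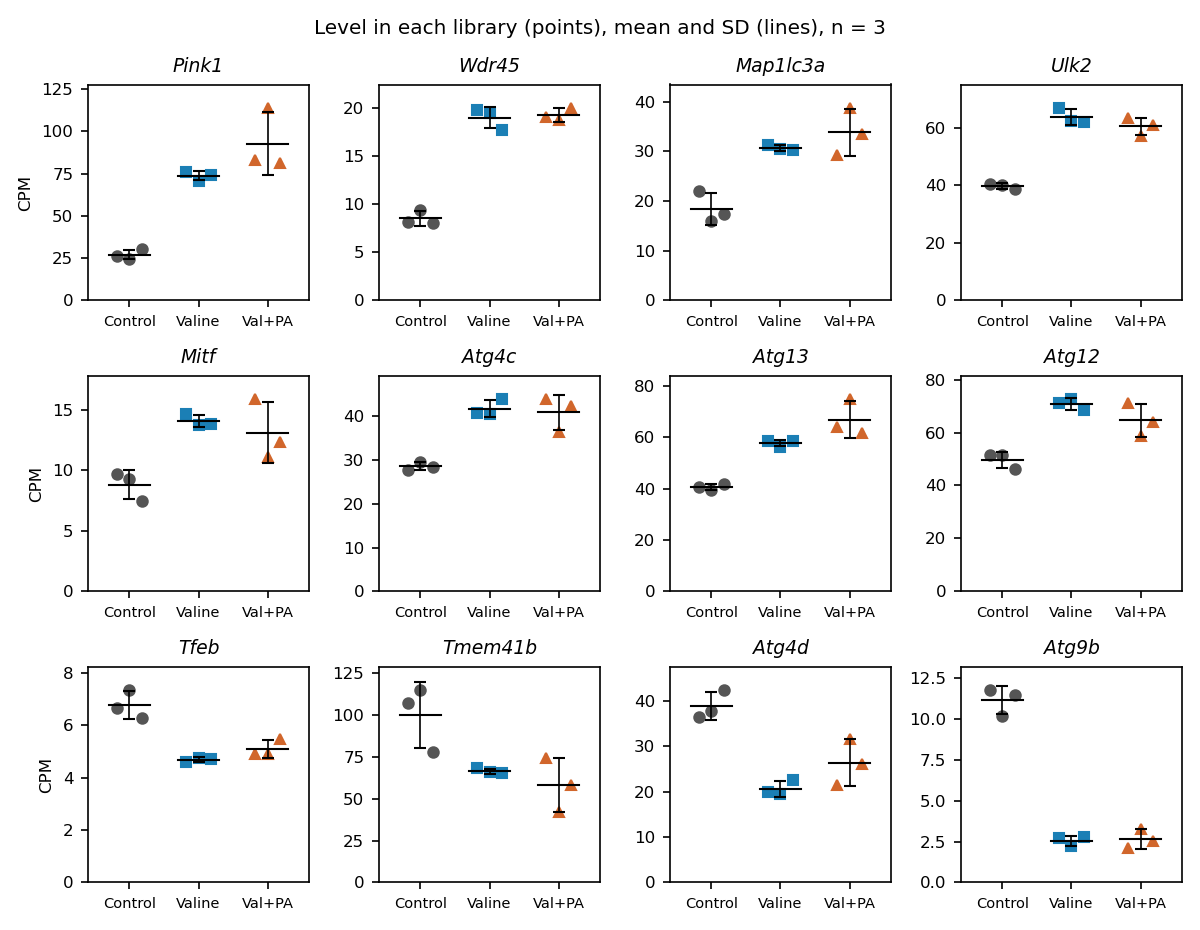
CPM (y axis, from 0) in each library (points) of Control, Valine and Val+PA (x axis), with the group mean and SD (n = 3), for the 12 genes called in both comparisons with Control that changed most in Valine. In the 8 genes that rose and the 4 that fell, no treated library overlaps the Control libraries, and Val+PA 2 (middle triangle) often lies apart from its group.

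Conjugation joins ATG12 to ATG5 through the enzymes ATG7 and ATG10, and ATG8 proteins to lipid through ATG7, ATG3 and the ATG12-ATG5-ATG16L1 complex, while ATG4 proteases prime ATG8 proteins and remove them from membranes. In each comparison with Control 3 of these 11 genes rose and 2 fell. Atg12 measured 51.6, 51.4 and 46.3 CPM in Control, 71.2, 72.8 and 68.4 CPM in Valine and 71.1, 58.7 and 64.0 CPM in Val+PA, rising by 0.51 (SE 0.10) and 0.38 (SE 0.10) with no overlap. Atg10, its E2 enzyme, had 4.20, 4.83 and 3.10 CPM in Control, 8.26, 8.26 and 7.83 CPM in Valine and 8.22, 3.78 and 5.84 CPM in Val+PA. It rose in Valine by 1.00 (SE 0.25), and in Val+PA, where Val+PA 2 fell within the Control range, it did not pass (0.55, SE 0.25) unless that library was left out, alone or together with Control 3. Atg3, the E2 for ATG8 proteins, measured 15.5, 14.2 and 16.5 CPM in Control, 12.6, 12.2 and 13.7 CPM in Valine and 11.0, 9.25 and 11.8 CPM in Val+PA. All treated libraries were below Control, and Atg3 passed in Val+PA (-0.52, SE 0.13) but not in Valine (-0.26, SE 0.13). Atg16l1 fell in Valine by 0.30 on the log2 scale (SE 0.11) from 60.0 to 65.4 CPM in Control to 49.9 to 51.3 CPM, with an adjusted p just inside the threshold (edgeR, Benjamini-Hochberg adjusted p = 0.0492, 0.000903 to 0.143 over 22 refits, of which 8 kept the call). Leaving out any single Control library, any single Valine library or Val+PA 3 ended it. In Val+PA it did not pass (-0.10, SE 0.11), but did without Control 3 and Val+PA 2 (-0.24, SE 0.07). Atg5, Atg7 and Atg16l2 were called in neither comparison, with log2 fold changes between -0.25 and 0.30, although Atg5 was called lower in Valine without Control 3 and Val+PA 2 (-0.21, SE 0.07).

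The 4 ATG4 proteases did not move alike. Atg4c measured 27.8, 29.6 and 28.5 CPM in Control, 40.7, 40.5 and 44.0 CPM in Valine and 44.0, 36.3 and 42.3 CPM in Val+PA. Atg4d measured 36.5, 37.7 and 42.5 CPM in Control, 19.9, 19.4 and 22.5 CPM in Valine and 21.4, 31.7 and 26.0 CPM in Val+PA. Atg4c thus rose by 0.54 (SE 0.11) and 0.51 (SE 0.11) and Atg4d fell, with log2 fold changes of -0.92 (SE 0.14) and -0.56 (SE 0.14), neither with overlap against Control. A share of 19.3% of the Atg4d exon bases overlaps Kri1 on the other strand, a gene that also fell in Valine, from a mean of 2.13 to 1.06 CPM. Atg4b, the main LC3 protease, measured 86.8, 84.9 and 83.0 CPM in Control, 91.1, 84.8 and 92.9 CPM in Valine and 95.5, 115 and 101 CPM in Val+PA. It passed in Val+PA at 0.29 (SE 0.10) in the fit of all libraries and in 12 of 22 refits, and lost its call without any single Control library, any single Valine library or Val+PA 3. Atg4a, at 17 to 22.1 CPM in Control and 25.1 to 25.6 CPM in Valine, did not pass (0.33, SE 0.13), nor did it in Val+PA (0.28, SE 0.13). Without Control 3 and Val+PA 2 it passed in both (0.23, SE 0.08, and 0.25, SE 0.09).

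ATG8 proteins coat the autophagosome and bind cargo receptors, and LC3 lipidation is the usual readout of the process. In Valine 2 of these 5 genes rose and 1 fell, and in Val+PA 2 rose. Map1lc3a (ENSMUSG00000027602, chromosome 2, 155276297 to 155278073, plus strand), which encodes LC3A, measured 22, 15.9 and 17.3 CPM in Control, 31.3, 30.4 and 30.3 CPM in Valine and 29.3, 38.8 and 33.4 CPM in Val+PA. The groups did not overlap, with a rise of 0.74 (SE 0.14) in Valine and 0.88 (SE 0.14) in Val+PA (edgeR, Benjamini-Hochberg adjusted p = 0.00144 and 0.000443). Map1lc3b, the LC3B gene, measured 141, 143 and 157 CPM in Control, 153, 150 and 164 CPM in Valine and 164, 176 and 177 CPM in Val+PA. It passed in neither comparison (0.08 and 0.23, SE 0.09 each), and passed in Val+PA in 7 of 22 refits, those without Control 3 and without Control 3 and Val+PA 2 among them. Gabarapl1 stood at 29.6, 26.9 and 25.9 CPM in Control, 37.4, 36.2 and 34.4 CPM in Valine and 39.7, 48.8 and 40.5 CPM in Val+PA. It rose by 0.39 (SE 0.11) and 0.65 (SE 0.11) with no overlap, the Valine call being lost without Control 2, Valine 1 or Valine 2. The antisense transcript 1700101I11Rik, at 0.321 CPM in Control, covers 28.3% of its exon bases. Gabarap measured 265, 247 and 277 CPM in Control, 209, 222 and 223 CPM in Valine and 225, 258 and 245 CPM in Val+PA. It fell in Valine by 0.27 on the log2 scale (SE 0.09), a call kept in 9 of 22 refits and lost without Control 1, Control 3, Val+PA 3 or any single Valine library. Gabarapl2, at 73.6, 74.8 and 118 CPM in Control, 74.4, 74.4 and 82.0 CPM in Valine and 81.5, 92.1 and 114 CPM in Val+PA, was called in neither (-0.20 and 0.11, SE 0.18 each). Control 3 stood far above the other Control libraries, and without it and Val+PA 2 Gabarapl2 passed in Val+PA (0.40, SE 0.11), while its Valine value turned to 0.06 (SE 0.10), not called.

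Levels were compared between genes on the authors' length-scaled signal, a count relative to gene length and library. The order of genes thus depends on the lengths used, which are not given. Over the 9 libraries Gabarap had the highest mean signal of the 51 genes, 271, ahead of Vmp1 at 212 and Rab7 at 92.6. Tfeb had the lowest, 2.01, then Atg9b at 2.85 and Tecpr1 at 3.63. Within the ATG8 family Map1lc3a had a signal of 31.8 ± 5.5 in Control against 40.0 ± 1.4 for Map1lc3b (SD, n = 3). In Valine the values were 54.3 ± 1.2 against 43.3 ± 1.8, so on this scale the order of the LC3 genes turned. The annotated exons cover 1181 bases in Map1lc3a and 7517 in Map1lc3b. In CPM Map1lc3b stayed far above Map1lc3a, with means of 147 against 18.4 in Control, 155 against 30.6 in Valine and 172 against 33.8 in Val+PA. Gabarapl1 had 27.9 ± 2.3, 37.5 ± 1.8 and 44.6 ± 5.1 in Control, Valine and Val+PA, below Gabarapl2 at 77.5 ± 20, 69.3 ± 3.6 and 86.1 ± 15 (SD, n = 3). The plot of levels per gene length gives the order of all members.

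**Figure D3:**
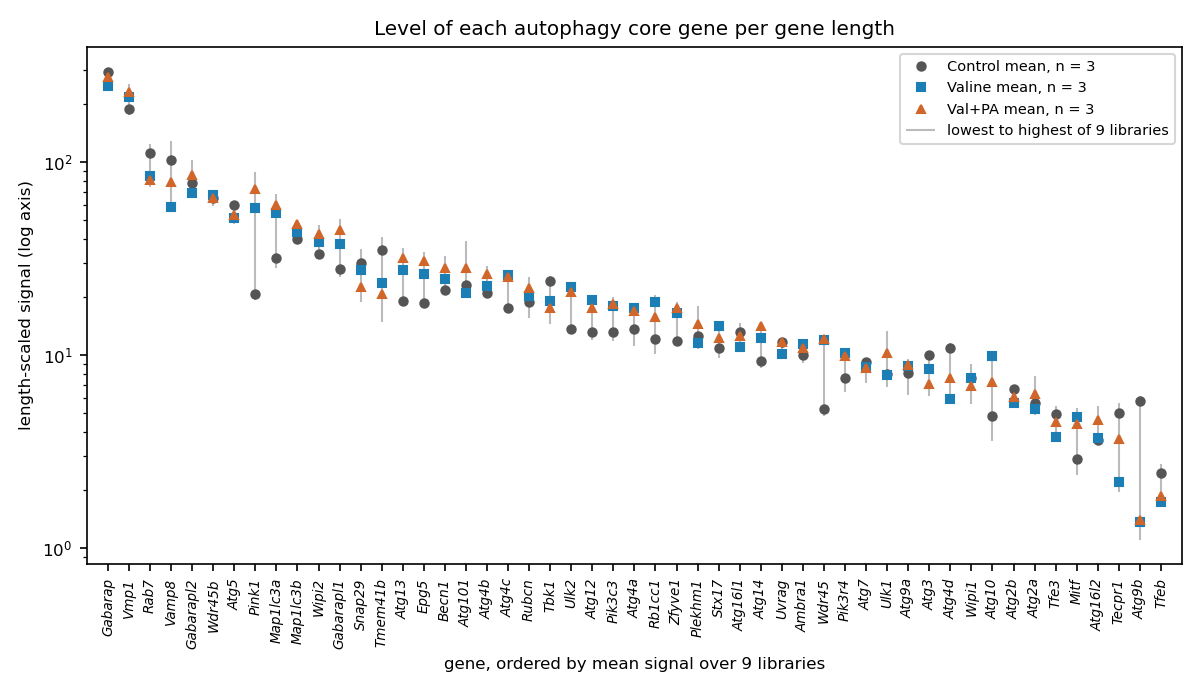
Length-scaled signal (y axis, log scale) of each of the 51 genes, ordered by the mean over 9 libraries (x axis), with group means (n = 3) as symbols and the range of all libraries as grey lines. Gabarap at 271 and Vmp1 at 212 lead and Tfeb at 2.01 is last, and Pink1, Map1lc3a, Wdr45, Atg10, Tecpr1 and Atg9b have group means set well apart.

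Ratios between paralogs were compared for 12 pairs, with exact two-sided permutation tests that cannot go below p = 0.1 with 3 against 3 libraries, adjusted over 36 tests to no less than 0.18. No pair could therefore pass, and the values are descriptive. The ratio of Atg9a to Atg9b signal was 1.37 in Control but 6.46 in Valine, and 6.43 with palmitic acid. Per library its log2 value was 0.54, 0.73 and 0.10 for Control, 2.49, 3.01 and 2.57 for Valine and 3.02, 2.40 and 2.63 for Val+PA, with a wide gap between Control and the treated libraries. The Atg4c to Atg4d log2 ratio was 0.73, 0.77 and 0.54 for Control, 2.15, 2.18 and 2.08 for Valine and 2.16, 1.31 and 1.82 for Val+PA. That of Map1lc3a to Map1lc3b was -0.02, -0.50 and -0.52 for Control, 0.38, 0.37 and 0.24 for Valine and 0.19, 0.48 and 0.27 for Val+PA, below 0 in every Control library and above 0 in every treated one. Where a ratio crosses 0 depends on the gene lengths used, while its difference between groups does not. Wdr45 went from 0.0809 to 0.177 and 0.187 of the Wdr45b signal. Ulk1 had 0.579 of the Ulk2 signal in Control, 0.353 of it in Valine and 0.472 of it in Val+PA, where Val+PA 2 brought the range into that of Control. In all, 10 of 12 pairs had ratios without overlap between Valine and Control, 7 between Val+PA and Control and 3 between the treated groups. Levels of single genes did not overlap in 59%, 45.5% and 24.6% of all genes tested in these comparisons, and the share over all ratios was not computed.

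**Figure D4:**
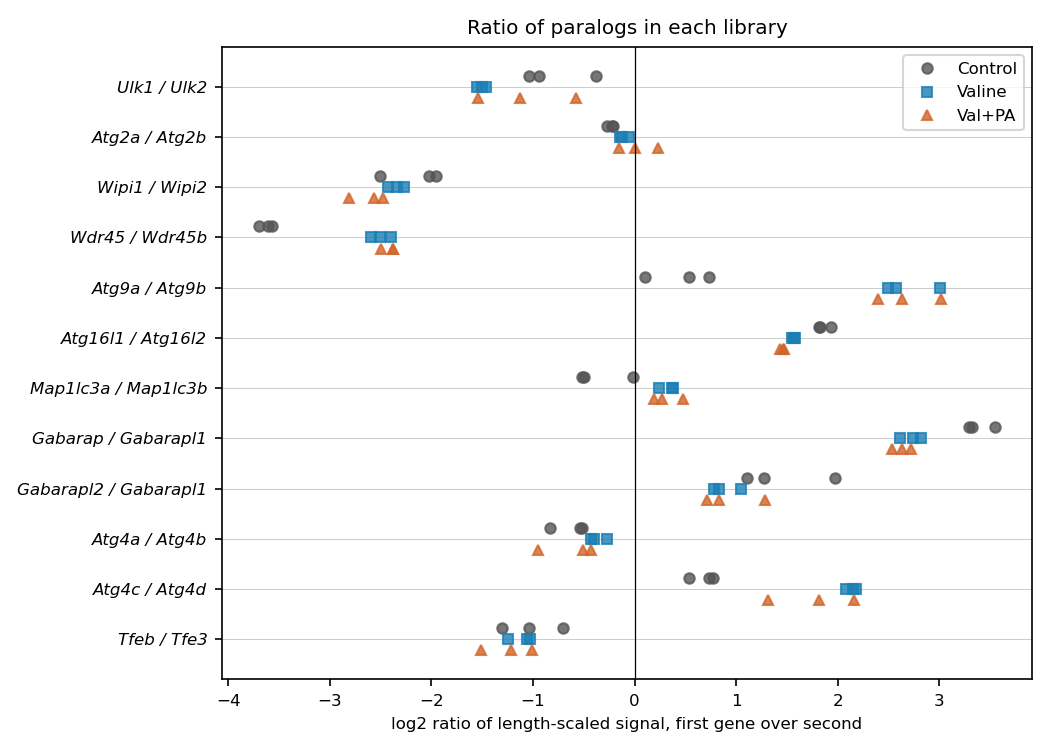
Log2 ratio of the length-scaled signal of the first gene over the second (x axis) for 12 paralog pairs (y axis), 1 symbol for each of 3 libraries of Control (circles), Valine (squares) and Val+PA (triangles). The Atg9a to Atg9b ratio moves from 0.10 to 0.73 in Control to 2.40 to 3.02 in the treated libraries. Map1lc3a to Map1lc3b crosses 0 on this scale, which depends on the gene lengths used.

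Fusion with the lysosome needs the autophagosomal SNARE syntaxin 17 (Stx17), SNAP29, the lysosomal SNARE VAMP8, the GTPase RAB7 and tethers such as EPG5, PLEKHM1 and TECPR1. In Valine 2 of the 7 genes rose and 3 fell, and in Val+PA 1 rose and 2 fell. Vamp8 measured 101, 95.6 and 151 CPM in Control, 60.7, 67.7 and 65.9 CPM in Valine and 72.6, 107 and 80.6 CPM in Val+PA. It fell in Valine (-0.84, SE 0.18, edgeR Benjamini-Hochberg adjusted p = 0.00292), while Val+PA 2 reached into the Control range and Val+PA did not pass (-0.42, SE 0.18) unless Val+PA 2, alone or together with Control 3, or Control 2 was left out. Rab7 measured 129, 137 and 163 CPM in Control, 104, 106 and 106 CPM in Valine and 103, 93.4 and 108 CPM in Val+PA. It fell in both, with log2 fold changes of -0.44 and -0.50 (SE 0.11 each) and no overlap. A processed pseudogene, Rab7-ps1, may share reads with it, so its level is uncertain to that extent. Epg5 moved the other way, from 85.7, 87.2 and 102 CPM in Control to 121, 125 and 130 CPM in Valine and 129, 164 and 147 CPM in Val+PA. It rose by 0.45 (SE 0.11) and 0.68 (SE 0.11). Stx17 had 33.5, 32.4 and 29.0 CPM in Control, 38.7, 42.4 and 39.6 CPM in Valine and 38.6, 32.5 and 34.0 CPM in Val+PA, and rose only in the Valine comparison (0.35, SE 0.11), a call lost without Control 2, Control 3, Valine 2 or Valine 3. Snap29 passed in Val+PA (-0.44, SE 0.15) and, in Valine, only in the refit without Control 3 and Val+PA 2 (-0.30, SE 0.09, against -0.16, SE 0.15). The Val+PA call stood although its values, 40.4 to 58.0 CPM in Control and 31.3 to 44.7 CPM in Val+PA, overlapped, and the call held in 9 of 22 refits. It was lost without Control 1, Control 2, Val+PA 2, Val+PA 3 or any single Valine library.

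Tecpr1, which encodes a tether that binds ATG5 and PI3P, was the fusion gene with the largest change. It measured 32.3, 25.6 and 36.3 CPM in Control, 14.7, 13.3 and 12.0 CPM in Valine and 18.8, 30.0 and 18.9 CPM in Val+PA. All Valine libraries were below all others, and Tecpr1 was 2.36-fold lower than in Control (log2 fold change -1.23, SE 0.19, edgeR Benjamini-Hochberg adjusted p = 0.000332). In Val+PA the mean lay between those of the other groups, Val+PA 2 fell within the Control range, and the comparison did not pass against Control (-0.48, SE 0.19), but did without Val+PA 2, alone or together with Control 3, and without Control 2.

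PINK1 is a kinase that collects on damaged mitochondria and starts their removal, and TBK1 phosphorylates cargo receptors. Pink1 (ENSMUSG00000028756, chromosome 4, 138313409 to 138326307, minus strand) measured 26.4, 24.6 and 30.2 CPM in Control, 76.1, 70.7 and 74.3 CPM in Valine and 83.1, 114 and 81.0 CPM in Val+PA. Every treated library was above every Control library, with a level 2.72-fold higher in Valine (log2 fold change 1.45, SE 0.14) and 3.43-fold higher in Val+PA (1.78, SE 0.14; edgeR, Benjamini-Hochberg adjusted p = 8.97e-06 and 1.99e-06). Tbk1 fell from 49.2, 47.4 and 42.6 CPM to 36.8, 34.9 and 34.9 CPM in Valine and 37.4, 27.2 and 34.1 CPM in Val+PA. Its log2 fold changes were -0.38 (SE 0.13) and -0.50 (SE 0.13), the Valine call holding in 12 of 22 refits and lost without Control 1, Control 2 or any single Valine library.

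The MiT/TFE factors switch on lysosome and autophagy genes when mTORC1 is inactive. Tfeb measured 6.64, 7.35 and 6.28 CPM in Control, 4.59, 4.74 and 4.72 CPM in Valine and 4.89, 4.90 and 5.47 CPM in Val+PA. It fell in both comparisons (-0.53 and -0.41, SE 0.14 each), although in Val+PA the call was kept in only 8 of 22 refits and lost without Control 1, Control 2, Val+PA 1 or any single Valine library. Tfe3 fell in Valine by 0.43 on the log2 scale (SE 0.15), from 22.2, 19.6 and 25.4 CPM to 17.8, 15.8 and 16.1 CPM, a call kept in 11 of 22 refits and lost without Control 1, Control 3 or any single Valine library, and in Val+PA it measured 16.1, 22.9 and 20.8 CPM and did not pass. Mitf measured 9.68, 9.27 and 7.49 CPM in Control, 14.6, 13.7 and 13.8 CPM in Valine and 15.9, 11.1 and 12.3 CPM in Val+PA, opposite to its relatives. It rose by 0.67 (SE 0.16) and 0.57 (SE 0.16) with no overlap.

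Val+PA against Valine asked what differed when palmitic acid was given for the last 12 h. None of the 51 genes passed edgeR's quasi-likelihood test or limma-voom, and neither did any of the 18415 genes (0% called). At an unadjusted p below 0.05 there were 6 members (11.8%) beside 13.2% of all genes. DESeq2 called 1 member and 192 of 13864 genes, and edgeR without the filter on low counts 1 member and 763 of 33116 genes. Without Control 3 and Val+PA 2, edgeR called the same 1 member and 604 of 18799 genes (3.21%). That member was Tecpr1, with a log2 fold change of 0.76 (SE 0.19, 95% interval 0.28 to 1.23, edgeR Benjamini-Hochberg adjusted p = 0.22, and 0.000296 to 0.685 over 22 refits). The other 5 were Pink1 (0.33, interval 0.00 to 0.67), Atg4d (0.35, 0.00 to 0.71), Vamp8 (0.42, -0.02 to 0.86), Atg16l2 (0.32, -0.01 to 0.64) and Gabarapl1 (0.26, -0.02 to 0.53), all higher in Val+PA. Some of these intervals include 0 because they use the 6 residual degrees of freedom alone, whereas edgeR's test also borrows information across genes. The libraries of both treated groups were fully separated in 17 of 51 members (33.3%) and in 24.6% of all genes, and the median log2 fold change of the members was 0.11, or 0.05 without Val+PA 2.

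Genes around the core pathway, chosen as lists with earlier results of these data known, also moved in both directions. The counts below stand beside shares over all genes tested of 20.8% higher and 21.1% lower in Valine, and 20.4% and 18.8% in Val+PA. Of 26 upstream kinases and inhibitors of initiation 25 were tested, with 6 higher and 7 lower in Valine and 5 and 7 in Val+PA. Sesn3, a sestrin that restrains mTORC1, measured 39.1, 40.4 and 35.8 CPM in Control, 129, 110 and 114 CPM in Valine and 100, 94.6 and 114 CPM in Val+PA, rising by 1.61 (SE 0.11) and 1.42 (SE 0.11). Flcn, the folliculin gene of the branch of mTORC1 that keeps TFEB and TFE3 in the cytoplasm, measured 83.1, 93.2 and 121 CPM, 30.6, 35.0 and 37.6 CPM and 38.2, 54.0 and 43.3 CPM in the same order. Its log2 fold changes were -1.53 (SE 0.16) and -1.13 (SE 0.16), and neither gene overlapped between Control and a treated group. Of 19 cargo receptors 7 rose and 3 fell in Valine and 6 rose and 2 fell in Val+PA. Ccpg1, a receptor for autophagy of the endoplasmic reticulum, had the largest rise by fit (2.06, SE 0.48, and 1.88, SE 0.49) but rests on 2 to 27 counts per library. It reached at most 0.791 CPM and passed the filter only through the treated libraries, where it was higher. Calcoco1 went from a mean of 24 CPM in Control to 89.2 in Valine and 84.6 in Val+PA, without overlap with Control. Phb2, a mitochondrial prohibitin, had the largest fall (-0.68 and -0.59, SE 0.11 each). Of 12 HOPS and late endosome genes 3 rose and 5 fell in Valine and 3 rose and 3 fell in Val+PA. Vps39, a HOPS subunit, rose by 0.66 (SE 0.10) and 0.73 (SE 0.10), and Bloc1s1 had log2 fold changes of -1.19 and -1.14 (SE 0.25 each). Of 24 lysosomal pump and enzyme genes 6 rose and 9 fell in Valine, and 7 rose and 2 fell in Val+PA. The protease gene Ctsb showed the largest rise in Val+PA (0.85, SE 0.10) and Galns, a sulfatase, in Valine (0.68, SE 0.13), while the largest falls among called genes were those of the pump subunit genes Atp6v1h in Val+PA (-0.44, SE 0.09) and Atp6v0c in Valine (-0.79, SE 0.17). The medians of these 4 lists in Valine were -0.17, 0.14, -0.11 and -0.14, in the order given, and in Val+PA -0.09, 0.14, 0.06 and 0.02, beside 0.00 for all genes in either comparison.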

How the data were processed

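RNA was measured by strand-specific paired-end sequencing of 9 C2C12 libraries, 3 per group. The authors deposited whole-number counts per Ensembl gene and a length-scaled signal. HISAT2, featureCounts, DESeq2 and the build GRCm38 are named, without versions, per the submitters' processing notes. Not given in the sources used here are the annotation release, the strand setting and how the authors scaled the deposited signal. Symbols came from GENCODE M21 for 97.1% of IDs. The members and lists were chosen with earlier results of these data known. Counts were tested with edgeR 4.0.16 (R 4.3.3; TMM, filterByExpr, 1 mean per group over all 9 libraries, 6 residual degrees of freedom, quasi-likelihood), with Benjamini-Hochberg adjustment over 18415 genes and a threshold of 0.05. Genes with no counts or below the filter were not tested. CPM used effective library sizes. Alternatives were other scalings and filters, DESeq2 1.42.0, limma-voom (limma 3.58.1), limma on the log2 of the deposited signal plus 1 or 0.1, a replicate block, and each library left out. On data simulated from these libraries, the test recovered 76 of 100 genes changed 2-fold and 26 of 100 changed 1.5-fold for Valine against Control, among 18022 genes, and called 4 unchanged genes. Far fewer genes were changed there than the 7718 called in the real comparison. The adjustment was thus stricter, and recovery in the real comparison can differ. Genes were named as members, markers or overlapping genes, or in each other list as those with the largest called rise and fall, with Calcoco1 added beside Ccpg1.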

Additional observations from a re-analysis of the deposited data

How the results depend on the processing

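No member's called direction reversed. Of 28 members called in Valine, 17 kept their call in all 22 refits, as did 16 of 25 in Val+PA. All 252 recomputed group differences in paralog ratio stayed within the pooled SD of the main value. Direction was checked only for pairs without overlap between the groups, and none of those reversed. Of the 11 genes lower in Valine, 7 were called with upper-quartile factors, 6 with library size alone, 6 on the signal plus 1 or plus 0.1, 5 on the signal without a filter, 6 at an adjusted p under 0.01 and 5 with a change of at least 1.5-fold. That fold left 7 of 17 higher in Valine, and 7 of 17 higher and 2 of 8 lower in Val+PA, where an adjusted p under 0.01 left 10 higher. With that fold 23.5% of members were called in Valine, beside 30.2% of all genes, and 17.6% in Val+PA, beside 28.1%. Shares of all genes under 0.01 were not computed. Between the treated groups, Tecpr1 was the 1 member called higher by DESeq2, without a filter and without Control 3 and Val+PA 2. The last of these refits called 604 of 18799 genes (3.21%). Leaving out 1 library gave 13 to 19 higher and 6 to 14 lower in Valine, 14 to 21 higher and 6 to 10 lower in Val+PA, and 0 to 0 between the treated groups; the 6 came in Valine without Control 1, Valine 1, Valine 2 or Valine 3. The causes of these shifts were not tested. With the replicate number as a block, 17 rose and 8 fell in Valine and 16 rose and 7 fell in Val+PA, but libraries of the same number correlated at only -0.272 to 0.158, so the numbers do not pair them. In simulated data of this depth and size, 26 to 30 of 100 genes changed 1.5-fold were recovered. Far fewer genes were changed there than were called here against Control, so the adjustment was stricter. Those shares are therefore not the recovery in the comparisons with Control. A missed call at that size still does not show equal levels.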
